A study of Mus musculus with 23 samples.

Results

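The 8 genes described here encode inflammatory cytokines (Il6, Lif and Il33), acute phase proteins (Saa3 and Lcn2), signalling proteins of the NF-kB pathway (Tnfaip3 and Irak2) and the inducible enzyme of prostaglandin synthesis (Ptgs2). They were taken by symbol from the annotation of a mouse expression array, as 8 of the 18193 genes that had a probe set with a single symbol, and they were covered by 11 probe sets. Where a gene had several probe sets, the one with the highest mean over all lines gave its value. Levels are log2 signal, so a difference of 1 is a doubling. Of the 8 genes, 7 passed a filter that asked for a level above the median of the whole table (5.13) in at least 3 lines. Lcn2 did so in 2 lines and was tested only in the alternative without this filter. Il33 did so in 4 lines, 3 of them Type 1, so the filter itself favoured a difference of that group.

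RNA came from 23 clonal preadipocyte lines, with 1 array for each line. Each was founded by 1 sorted cell from the stromal cells of adipose tissue, that is, its cells other than fat cells, of a single male Immortomouse aged 8 weeks. Cells of this strain carry a temperature-sensitive viral antigen under an interferon-inducible promoter, and the lines of every group were kept at 33 °C in medium with 10 units/mL interferon gamma. The lines fell by their labels into Other (7 lines with no numbered type), Type 1 (3 lines), Type 2 (5 lines) and Type 3 (8 lines). Clone names begin with PGF, read as perigonadal fat, or with SCF, read as subcutaneous fat: Other held 3 PGF and 4 SCF lines, Type 1 held 3 PGF lines, Type 2 held 1 PGF and 4 SCF lines, and Type 3 held 4 of each. The submitters had derived the types by clustering expression data, so tests between types describe those groups and are not independent evidence for them. All lines came from 1 mouse, so every SD, SE and p-value measures the spread between clones. The sources used here do not say whether RNA was taken before or after induction of differentiation.

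The label of preadipocyte lines was checked against markers. Pdgfra, Pdgfrb, Col1a1 and Col3a1, genes of stromal fibroblasts and preadipocytes, lay above the table median in 23 of 23 lines. Of the same list Dlk1 did so in 23 lines, Thy1 in 20 and Cd34 in 18. Of 5 adipocyte markers measured, 0 lay above the median in all Type 1 lines and 2 in all Other lines. The count was 3 in all Type 2 lines and 3 in all Type 3 lines. Pparg averaged 4.71 for Type 1 lines, 8.77 for Type 2 lines, 7.98 for Type 3 lines and 7.29 for Other lines. Ptprc, Adgre1, Itgam and Tyrobp, which define leukocytes and macrophages, and Pecam1, Cdh5, Tie1 and Vwf, which define endothelium, lay above the table median in 0 lines. Other genes of these lists were measured above it: Csf1r, Cd14 and Laptm5 of the 12 leukocyte markers and Kdr of the 6 endothelial markers lay above the median in 23 lines, Cd68 in 20, Cd53 in 18, Tek in 17 and Spi1 in 15. In all lines of a group, 3 of 12 leukocyte markers lay above the median for Other, 4 for Type 1, 6 for Type 2 and 3 for Type 3. The signals of the 12 leukocyte markers were summed before the log was taken, so the strongest markers weigh most. The log2 of the sum was 9.62 to 12.35 for Other lines and 9.20 to 9.47 for Type 1 lines. It was 10.83 to 11.85 for Type 2 lines and 9.11 to 10.78 for Type 3 lines. The endothelial markers, summed in the same way, gave 7.18 to 10.73 for Other lines and 7.93 to 9.04 for Type 1 lines. They gave 6.82 to 7.72 for Type 2 lines and 7.55 to 9.65 for Type 3 lines. The part of either list in the results was not tested. Most mesothelial markers were high in Type 1, where 8 of 10 lay above the median in all 3 lines, against 2 of 10 in all Type 2 lines and 1 of 10 in all Type 3 lines. Krt19, 1 of the 10, went the other way. It averaged 5.49 for Type 1, 7.78 for Type 2, 6.33 for Type 3 and 7.28 for Other lines, and was highest in PGF3-6 (9.76), an Other line. The log2 of the summed mesothelial signal ranged between 7.85 and 10.01 for Other lines and between 14.00 and 14.70 for Type 1 lines. It ranged between 8.34 and 9.28 for Type 2 lines and between 7.59 and 8.42 for Type 3 lines. Every result for Type 1 given below therefore moved together with most of the mesothelial markers, and their part in it was not tested.

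NF-kB is a family of transcription factors that is held inactive by IkB proteins and released when receptors for interleukin 1, tumour necrosis factor or microbial products are engaged. IRAK kinases carry the signal from interleukin 1 and Toll-like receptors, and A20, the product of Tnfaip3, is an NF-kB target that shuts the signal off again. Interleukin 6 and leukemia inhibitory factor act through the shared receptor subunit gp130 and the factor STAT3, which with C/EBP factors drives acute phase genes. In fat, stromal cells are a known source of interleukin 6 and interleukin 33, and serum amyloid A3 is the form of that acute phase protein made in mouse adipose tissue.

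The 250 bases before the start site are shown for Il6, Tnfaip3 and Saa3, the genes on which the description of single lines below turns, to show where the NF-kB consensus lies in them. The sequences are RefSeq's, build GRCm38.p6, read 5′ to 3′ on the gene's strand, and capitals mark matches to the NF-kB consensus on either strand. They cover chr5:30012864-30013113 on the plus strand for Il6, chr10:19015411-19015660 on the minus strand for Tnfaip3 and chr7:46715677-46715926 on the minus strand for Saa3, whose start used here lies inside the annotated span of the gene.
Il6 promoter: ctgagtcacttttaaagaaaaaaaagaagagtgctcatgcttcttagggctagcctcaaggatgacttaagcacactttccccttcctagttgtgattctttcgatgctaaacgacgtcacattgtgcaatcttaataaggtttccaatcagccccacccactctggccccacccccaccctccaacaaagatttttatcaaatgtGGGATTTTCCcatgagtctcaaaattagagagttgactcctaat
Tnfaip3 promoter: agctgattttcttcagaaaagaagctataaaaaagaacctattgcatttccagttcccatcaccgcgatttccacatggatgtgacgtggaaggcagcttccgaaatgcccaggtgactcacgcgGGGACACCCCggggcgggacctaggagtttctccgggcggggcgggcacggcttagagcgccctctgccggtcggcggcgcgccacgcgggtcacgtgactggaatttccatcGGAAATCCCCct
Saa3 promoter: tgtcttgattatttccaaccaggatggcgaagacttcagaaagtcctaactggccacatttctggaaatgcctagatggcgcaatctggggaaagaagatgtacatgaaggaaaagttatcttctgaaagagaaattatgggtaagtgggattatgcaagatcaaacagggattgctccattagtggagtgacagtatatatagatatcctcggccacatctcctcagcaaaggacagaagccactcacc
The consensus occurred at -44 to -35 from the start of Il6 and at -125 to -116 and -12 to -3 from the start of Tnfaip3 shown, and did not occur in the Saa3 window. The window before a second start of Tnfaip3, chr10:19011964-19012213, held no match to this consensus. Of 32851 promoter windows of this length, 3.9% held it. TTGCNNAA, a form of the C/EBP motif, occurred in Il6 at -128 to -121 and in Saa3 at -99 to -92, as well as in Ptgs2 at -69 to -62, in Lcn2 at -216 to -209 and before a second start of Il33 at -85 to -78 (9.56% of windows). TGANTCA, the AP-1 motif, occurred in Il6 at -249 to -243, in Tnfaip3 at -136 to -130 and in Lif at -228 to -222 (6.75% of windows). TTCNNNGAA, a STAT motif, occurred in none of the windows of the 8 genes (7.02% of all). Both strands were searched, and none of the matches in Il6, Tnfaip3 and Saa3 overlapped another. A match is a description of letters and not of a bound factor.

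Each of the 8 genes varied more between lines than most of the genes tested. The SD over 23 lines was 2.63 for Saa3, 1.63 for Il6, 1.53 for Il33, 1.26 for Tnfaip3, 1.23 for Ptgs2, 0.85 for Lif, 0.76 for Lcn2 and 0.64 for Irak2, where the median gene had 0.243. Saa3 exceeded 99.9% of tested genes in this respect and Irak2 exceeded 88.0%. The groups accounted for 88.1% of the variance of Il33 and 65.7% of that of Irak2, but for 31.9% in Il6, 30.1% in Lif, 28.4% in Ptgs2 and 18.0% in Lcn2, against a median of 28.3%. For Tnfaip3 the share was 46.5% and for Saa3 58.4%. In Il6, Lif, Ptgs2, Lcn2 and Tnfaip3 most of the variation therefore lay among lines of the same group.

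**Figure D1:**
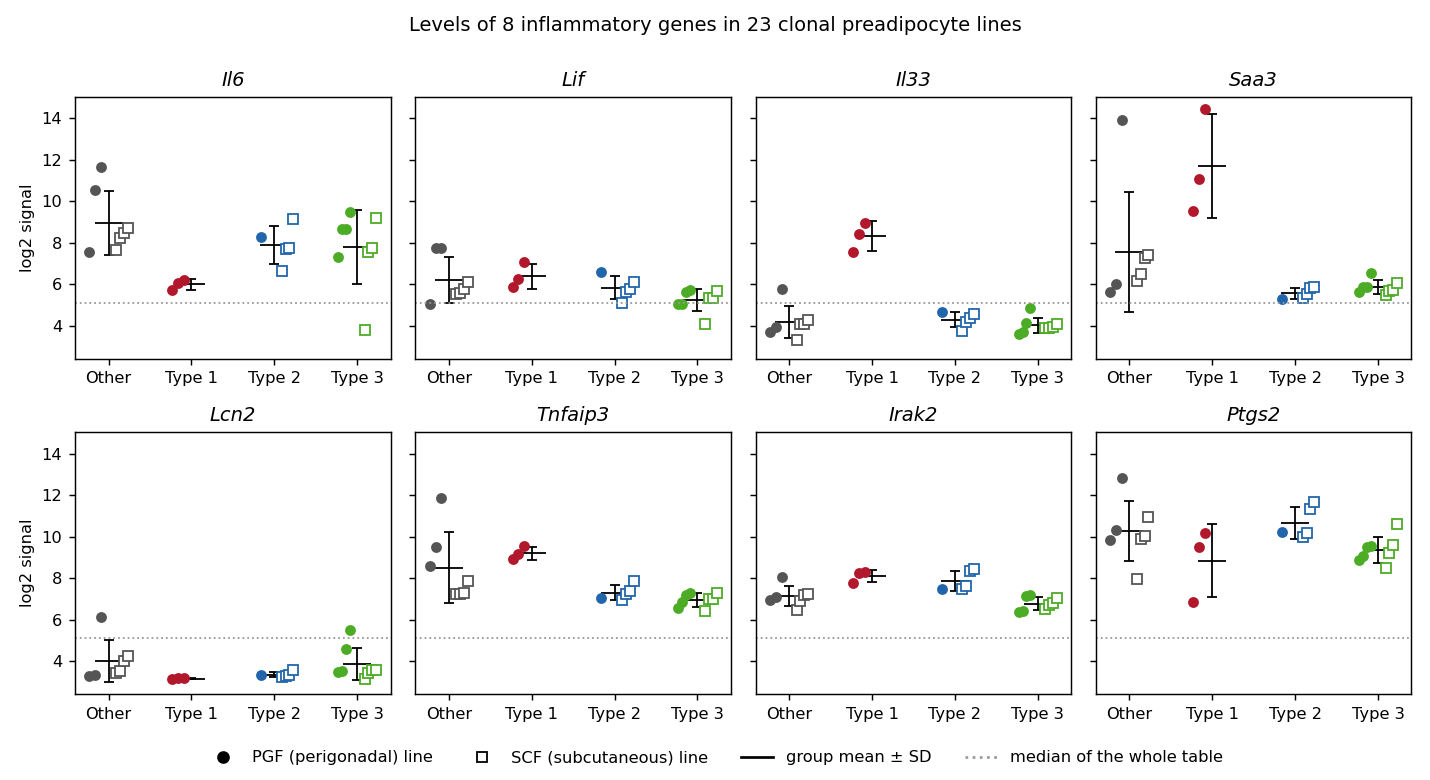
Log2 signal of the 8 genes by group, with 1 point per line (filled circles PGF, open squares SCF); bars are the group mean ± SD and the dotted line is the median of the whole table, 5.13. The 3 Type 1 lines lie above all other lines for Il33, and single Other lines reach 13.90 for Saa3, 11.85 for Tnfaip3 and 12.81 for Ptgs2.

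Type 1 lines were set against the mean of Types 2 and 3 to see which of these genes belonged to the difference between them. Il33, Saa3, Tnfaip3 and Irak2 were higher in Type 1, so 4 of the 7 genes tested changed, all upward, where 32.8% of all 12307 genes changed and 18.2% rose (limma, Benjamini-Hochberg adjusted p below 0.05). Nothing is read from this count, since Il33 passed the filter mainly through the Type 1 lines and the types came from expression data. Il6 (-1.85 ± 0.88 SE, adjusted p = 0.112), Lif (0.86 ± 0.47, adjusted p = 0.166) and Ptgs2 (-1.17 ± 0.68, adjusted p = 0.195) did not pass. In the bulk RNA of a line, fewer expressing cells and less RNA per cell cannot be told apart.

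Il33 encodes an alarmin cytokine of the interleukin 1 family that is stored in the nucleus (chromosome 19, 29925113 to 29960718). It measured 7.54 in PGF3-11, 8.42 in PGF3-4 and 8.98 in PGF2-8, the 3 Type 1 lines. Type 2 lines ran from 3.75 to 4.67 with a median of 4.39, and Type 3 lines from 3.62 to 4.86 with a median of 3.94. Every Type 1 line lay above every other line, as was the case for 7.86% of genes, and all Type 2 and Type 3 lines lay below the table median. The difference was 4.14 ± 0.35 (adjusted p = 5.1e-09), and it passed in each of 23 refits without 1 line. The Type 2 and Type 3 lines lay below the table median, so no fold is given, and the difference was 3.29 with an offset of 16 added before the log. Among the remaining lines only PGF3-6, an Other line, stood above the table median, at 5.79. The 3 genes whose levels ran most alike over 23 lines were Ak5 (r = 0.967), Sort1 (r = 0.964) and Lratd2 (r = 0.961), and over the 20 lines outside Type 1 the same correlations were 0.753, 0.749 and 0.605, where Il33 lay above the table median in PGF3-6 alone.

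Saa3 encodes serum amyloid A3, an acute phase apolipoprotein (chromosome 7, 46711998 to 46719615). Its Type 1 levels were 9.55 in PGF3-4, 11.10 in PGF3-11 and 14.46 in PGF2-8. The last value was the highest in the whole table, and whether the array was saturated there was not tested. Type 2 lines lay between 5.32 and 5.88 and Type 3 lines between 5.49 and 6.53, so neither group overlapped Type 1. Such a gap to Type 2 was seen for 32.1% of genes and to Type 3 for 29%. Saa3 rose by 5.98 ± 1.10 (63.0-fold, adjusted p = 0.000243), and by 4.60 without PGF2-8 (adjusted p = 0.00869). PGF2-8 also had the largest 3' minus 5' difference of the actin control, a sign of RNA integrity, at 1.58, against 0.53 to 1.00 in the other lines. Most alike to Saa3 over 23 lines were Nfkbie (r = 0.948), an IkB inhibitor of NF-kB, Tlr2 (r = 0.928), a Toll-like receptor, and Plscr1 (r = 0.928), a phospholipid scramblase induced by interferon. Without the Type 1 lines all 3 correlations lay between 0.876 and 0.958. Among the lines left, Saa3 measured 13.90 in PGF3-5, an Other line, and at most 7.42 in the rest. Leaving out PGF3-5 as well was not tried.

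Tnfaip3 encodes A20, the ubiquitin-editing feedback inhibitor of NF-kB (chromosome 10, 19000910 to 19015410). In Type 1 it measured 8.92 in PGF3-4, 9.18 in PGF3-11 and 9.54 in PGF2-8. Type 2 lines lay between 6.96 and 7.86 and Type 3 lines between 6.44 and 7.32, and neither overlapped Type 1. Of all genes, 32.1% had no overlap of Type 1 with Type 2 and 29% none with Type 3. The difference was 2.08 ± 0.60 (4.22-fold, adjusted p = 0.0109). It did not pass without PGF2-8, the line with the large actin difference (adjusted p = 0.0647) or with depot in the model (1.46, adjusted p = 0.0792). A second probe set of the gene, weaker in signal, correlated with the first at r = 0.853 over 23 lines and differed by 0.34 in the same direction. Bcl10 (r = 0.869), an adaptor that leads antigen receptors to NF-kB, Smcr8 (r = 0.860) and Mfap3 (r = 0.849) ran most alike to Tnfaip3.

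Irak2 encodes an interleukin 1 receptor-associated kinase (chromosome 6, 113638467 to 113695026). Type 1 lines had 7.78, 8.25 and 8.31, Type 2 lines 7.49, 7.49, 7.64, 8.33 and 8.45, and Type 3 lines 6.40 to 7.21 with a median of 6.75. Both Type 1 and Type 2 lines thus lay above every Type 3 line, while Type 1 and Type 2 overlapped. Type 1 and Type 3 lines did not overlap for 29% of all genes, and Type 2 and Type 3 lines for 3.28%. Against the mean of both types, Irak2 rose in Type 1 by 0.78 ± 0.25 (1.72-fold, adjusted p = 0.0195). The pairwise contrasts of the same fit gave 0.23 ± 0.28 against Type 2 (adjusted p = 0.594) and 1.33 ± 0.26 against Type 3 (adjusted p = 0.00046), where 25.2% and 34.7% of all genes passed. The call against both types together was lost without PGF3-4 (adjusted p = 0.0945) or PGF3-11 (adjusted p = 0.0887) and with depot in the model (0.72, adjusted p = 0.0611). Skil (r = 0.907), a repressor of TGF-beta signalling, Cdk7 (r = 0.906), the kinase of the general transcription factor TFIIH, and Ccn2 (r = 0.898), a matricellular protein, ran most alike to Irak2.

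Il6 encodes interleukin 6 (chromosome 5, 30013114 to 30019975). Type 1 lines measured 5.74 in PGF2-8, 6.05 in PGF3-11 and 6.24 in PGF3-4, and were close to each other. Type 2 lines measured 6.65, 7.69, 7.77, 8.29 and 9.17, and Type 3 lines ran from 3.83 to 9.47 with a median of 8.20. The 3 Type 1 lines thus lay below every other line but SCF3-9, a Type 3 line at 3.83. As given above, the difference did not pass over all lines. It did pass without SCF3-9 (-2.14, adjusted p = 0.017), with depot in the model (-2.73, adjusted p = 0.0263) and with arrays weighted by their quality (-2.06, adjusted p = 0.000472). The estimation of these weights did not converge, 7073 of all genes passed with them, and of the Type 1 lines PGF3-11 had a weight of 6.68, PGF3-4 of 1.16 and PGF2-8 of 0.366. Pgs1 (r = 0.846), an enzyme of cardiolipin synthesis, Tnfaip2 (r = 0.834), a gene induced by tumour necrosis factor, and Litaf (r = 0.799), a lysosomal membrane protein, ran most alike to Il6.

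Lif encodes leukemia inhibitory factor (chromosome 11, 4257568 to 4272514), and its Type 1 levels of 5.89, 6.25 and 7.07 overlapped Type 2 (5.09 to 6.59) but not Type 3 (4.08 to 5.72). No overlap of Type 1 with Type 3 was seen for 29% of all genes. Against Type 3 alone the difference of Lif was 1.16 ± 0.49 and did not pass (adjusted p = 0.0712). With the array weights described for Il6, whose estimation did not converge, Lif did pass against both types (0.93, adjusted p = 0.00631). Its second probe set lay below the table median in all lines, correlated with the first at only r = 0.423 and differed by -0.28, the opposite sign. Ier3 (r = 0.735), an early response gene, Zfp36 (r = 0.723), which destabilises cytokine mRNA, and Cish (r = 0.713), a STAT5 feedback inhibitor, ran most alike to Lif.

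Ptgs2 encodes cyclooxygenase 2, which makes prostaglandin H2 from arachidonic acid (chromosome 1, 150100031 to 150108234). Its Type 1 lines were far apart, with 6.87 in PGF2-8, 9.51 in PGF3-11 and 10.17 in PGF3-4. The Type 2 lines lay between 9.96 and 11.65 and the Type 3 lines between 8.49 and 10.61. Without PGF2-8 the difference of -1.17 shrank to -0.18. PGF2-8 is again the line with the large actin difference. The second probe set followed the first at r = 0.914 over 23 lines and differed by -0.12 between Type 1 and Types 2 and 3. Ereg (r = 0.849), a ligand of the epidermal growth factor receptor, Ppp1r18 (r = 0.824) and Nr4a2 (r = 0.812), a nuclear receptor of the early response, ran most alike to Ptgs2.

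Lcn2, which encodes the iron-scavenging acute phase protein lipocalin 2 (chromosome 2, 32384637 to 32387739), was low in nearly all lines. Type 1 lines lay between 3.14 and 3.20, Type 2 lines between 3.25 and 3.59, and Type 3 lines between 3.16 and 5.53. Only PGF3-5 (6.13), an Other line, and PGF2-2 (5.53), a Type 3 line, lay above the table median, so differences between groups were not detectable at this signal. In the fit without the filter Lcn2 differed by -0.45 ± 0.45 (SE) between Type 1 and Types 2 and 3 (adjusted p = 0.531), and its adjusted p over the 7 contrasts lay between 0.44 and 0.981. The genes most alike to Lcn2, Cxcl1 (r = 0.763), a neutrophil chemokine, Serpinb2 (r = 0.756) and Slc43a2 (r = 0.754), had lower correlations without PGF3-5 (0.492, 0.571 and 0.654).

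**Figure D2:**
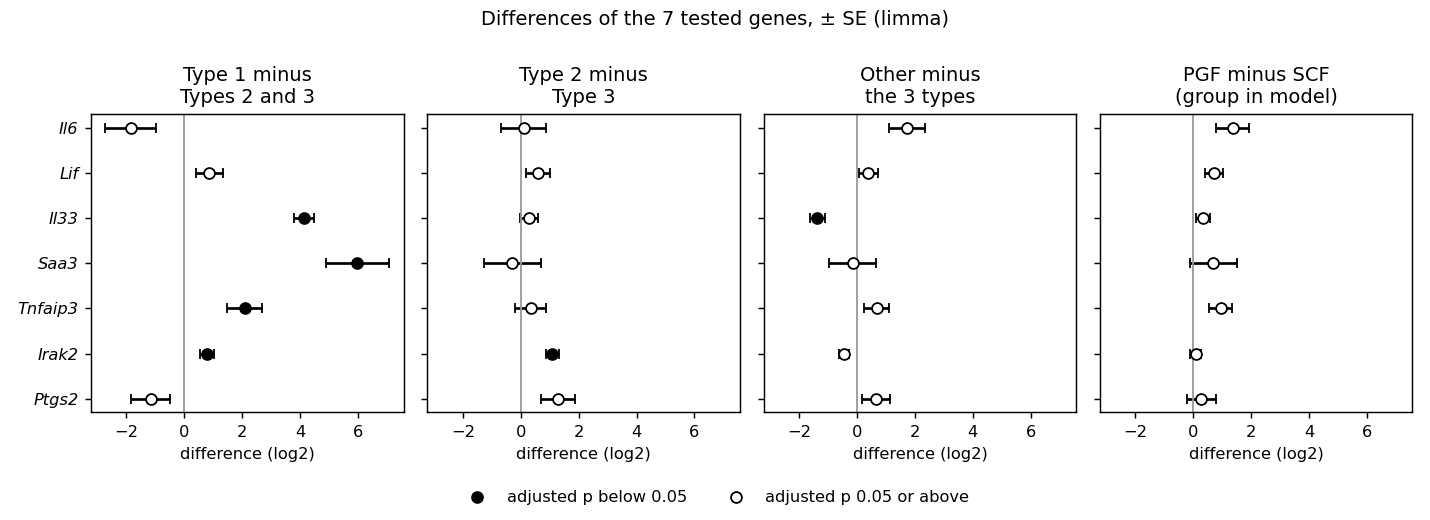
Differences of the 7 tested genes on the log2 scale with their SE in 4 contrasts; filled points passed at an adjusted p below 0.05 (limma). In Type 1 minus Types 2 and 3 the filled points are Il33 (4.14), Saa3 (5.98), Tnfaip3 (2.08) and Irak2 (0.78); Irak2 (1.10) is filled in Type 2 minus Type 3 and Il33 (-1.37) in Other minus the 3 types.

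Types 2 and 3, the types with lines from both depots, were then set against each other. Irak2 was the 1 gene of the 7 that changed, with 1.10 ± 0.22 higher levels in Type 2 (2.14-fold, adjusted p = 0.0423), in a contrast where 0.382% of all genes passed. No Type 2 line overlapped a Type 3 line, as was the case for 3.28% of genes. The call was near the threshold: it was lost in 14 of 23 refits without 1 line (adjusted p up to 0.148), when no filter was applied (adjusted p = 0.051), when all probe sets of a gene were averaged (adjusted p = 0.0559) and with the number in the clone name in the model (adjusted p = 0.088), while the difference stayed between 0.95 and 1.19 in those refits. Ptgs2 had a larger difference of 1.29 ± 0.60 that did not pass (adjusted p = 0.266). For Il6 (0.10), Lif (0.60), Il33 (0.28), Saa3 (-0.29) and Tnfaip3 (0.34) the adjusted p lay between 0.46 and 0.966.

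The 7 Other lines were set against the mean of the 3 types. Il33 was the 1 gene that changed, at -1.37 ± 0.25 (adjusted p = 0.00144), where 5.73% of genes passed and 3.23% fell. Without the Type 1 lines the difference was 0.015 (adjusted p = 0.992) and 1 of all 12307 genes passed. Other lines had Il33 from 3.34 to 5.79 with a median of 4.11, which overlapped Types 2 and 3. Saa3 in Other ran from 5.64 to 13.90 with a median of 6.52, Tnfaip3 from 7.22 to 11.85 with a median of 7.85, and Lif from 5.06 to 7.76 with a median of 5.77. In each of these 3 genes the highest Other line was PGF3-5. Ptgs2 in Other ran from 7.99 to 12.81 with a median of 10.05 and Irak2 from 6.50 to 8.06 with a median of 7.12. Il6 in Other ran from 7.58 to 11.65 with a median of 8.47, with a difference of 1.73 ± 0.63 that did not pass (adjusted p = 0.117). Against Type 1 alone, Other lines had higher Il6 by 2.96 ± 0.94 (adjusted p = 0.022), lower Saa3 by -4.14 ± 1.18 (adjusted p = 0.0115), lower Il33 by -4.13 ± 0.37 (adjusted p = 2.1e-08) and lower Irak2 by -0.97 ± 0.27 (adjusted p = 0.00894), where 28.4% of genes passed. These contrasts share the Other and Type 1 lines with those above. Against Type 2 the share of genes that passed was 0.00813% and against Type 3 it was 0%, and none of the 7 passed.

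By group mean, Il6 came in the order Other, Type 2, Type 3 and Type 1, and no step between neighbours passed in the pairwise contrasts. For Lif the order was Type 1, Other, Type 2 and Type 3, again with no step that passed. Il33 came in the order Type 1, Type 2, Other and Type 3, with the step below Type 1 alone passing. Saa3 followed Type 1, Other, Type 3 and Type 2, with the step from Type 1 to Other passing. Tnfaip3 followed Type 1, Other, Type 2 and Type 3, and here the step between Type 1 and Other did not pass. Irak2 followed Type 1, Type 2, Other and Type 3, where Other minus Type 2 was -0.74 ± 0.23 (adjusted p = 0.166). Ptgs2 followed Type 2, Other, Type 3 and Type 1, with no step passing.

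PGF and SCF lines were compared with group in the model, since all Type 1 lines are PGF. In this contrast (limma) 0% of the 12307 genes passed after adjustment and 8.4% had an unadjusted p below 0.05. Among these were Tnfaip3 (0.95 ± 0.40), Il6 (1.35 ± 0.59) and Lif (0.71 ± 0.31), each higher in PGF, with adjusted p from 0.558 to 0.564. The depots were set side by side for Tnfaip3 in the groups with several lines of each. In Other its PGF lines measured 8.60, 9.52 and 11.85 and its SCF lines 7.22, 7.24, 7.30 and 7.85. In Type 3 its PGF lines measured 6.59, 6.86, 7.21 and 7.30 and its SCF lines 6.44, 7.00, 7.01 and 7.32. The depot difference in Type 3 minus that in Other was -2.54 ± 0.65 for Tnfaip3 (unadjusted p = 0.00104, adjusted p = 0.267), in a test where 0% of genes passed after adjustment and 8.91% before it. Without PGF3-5 this value was -1.61, and the Tnfaip3 depot difference of 0.95 was 0.50. The highest SCF line of any group had 7.86, and the 6 PGF lines of Type 1 and Other lay above it, while the PGF lines of Types 2 and 3 lay below it. This split was drawn after the values were seen, and the share of all genes with such a split was not computed.

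The submitters scored each line from 1 to 4 for differentiation and for acidification of the medium, and the sources used here do not say which way the second score runs. With group in the model, 0% of genes passed for either score, and 7.09% and 12.3% had an unadjusted p below 0.05. Per point of differentiation, Il6 changed by -0.85 ± 0.35 (adjusted p = 0.661) and Irak2 by -0.26 ± 0.10 (adjusted p = 0.608). Without SCF3-9 the Il6 slope was -0.53. Per point of acidification, Saa3 changed by 0.67 ± 0.29 (adjusted p = 0.362). Without PGF3-5, a line with score 4, the Saa3 slope was 0.16. These 3 slopes had an unadjusted p below 0.05; none of the other slopes of the 7 genes did.

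**Figure D3:**
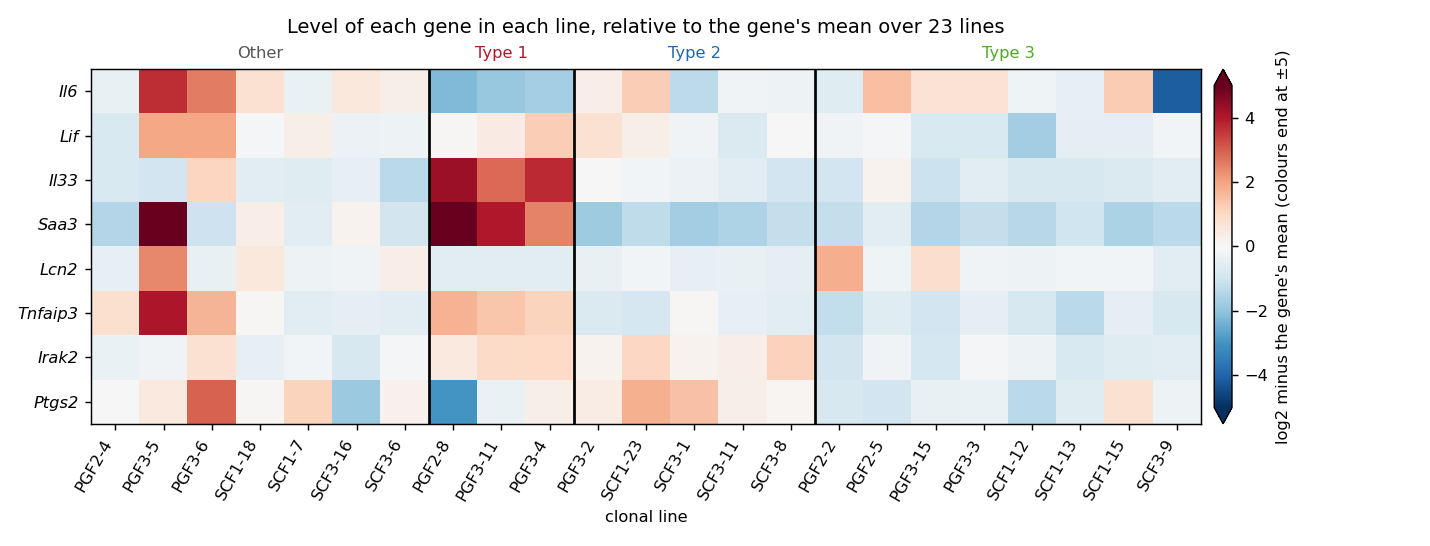
Level of each gene in each of the 23 lines relative to the gene's mean over the lines, on the log2 scale, with lines ordered by group and PGF before SCF lines; colours end at 5 above or below the mean. PGF3-5 is high for Il6, Lif, Saa3, Lcn2 and Tnfaip3, Type 1 lines are high for Il33 and Saa3 and low for Il6, and SCF3-9 has the lowest Il6.

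Single lines carried much of the variation, and 4 of them were looked at after their values were seen, so what follows is a description with no test. PGF3-5, an Other line, had the highest level of 4 of the 8 genes: Il6 (11.65), Lif (7.76), Lcn2 (6.13) and Tnfaip3 (11.85). It was the highest line for 7.23% of all genes tested. Its Saa3 of 13.90 was second to PGF2-8 alone and compared with a mean of 6.51 ± 0.71 (SD, n = 6) in the remaining Other lines, 168-fold less. Tnfaip3 in PGF3-5 was 14.9-fold and Il6 8.75-fold above the mean of those 6 lines. Il33 (3.73) and Irak2 (7.12) were not raised in it.

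The same line led the NF-kB genes. Of 20 tested genes for components and feedback inhibitors of NF-kB, PGF3-5 had the highest level in 13 and was among the highest 3 lines in 18, where 16.2% of all genes had it among the highest 3. Nfkbia, the main IkB inhibitor, measured 13.33 in PGF3-5 and at most 11.74 in any other line. Tnip1, a partner of A20, measured 11.41 and at most 9.92 elsewhere. Birc3, a ubiquitin ligase of the pathway, measured 10.01 and at most 8.79 elsewhere, and Rela, the main activating subunit, 10.87 and at most 10.04. Tlr2 measured 10.05 and at most 8.86 elsewhere. Of the mesothelial markers, Wt1 was at 4.67 in PGF3-5, below the table median, against a mean of 10.55 in Type 1, while Upk3b (7.08), Krt18 (6.11) and Bnc1 (6.30) lay above it, 5 of the 10 markers in all; their part was not tested. Of the 12 leukocyte markers 6 lay above the median in this line, among them Csf1r (9.55), Cd14 (8.27) and Cd68 (5.44), while Ptprc (3.11), Adgre1 (3.68) and Tyrobp (3.92) lay below it.

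PGF3-6, another Other line, shared high Il6, Lif and Tnfaip3 with PGF3-5 but not high Saa3 and Lcn2. It had the second highest Il6 (10.52) and Lif (7.75), the third highest Tnfaip3 (9.52) and the highest Ptgs2 (12.81), 7.81-fold above the mean of the remaining Other lines. Its Il33 measured 5.79, where PGF3-5 had 3.73. Its Saa3 (6.04) and Lcn2 (3.36) lay within the range of the other Other lines. It was the highest line for 0 of the 20 NF-kB genes, where it was so for 5.14% of all genes. It also had the highest Csf1r (11.68) and Cd53 (10.51), genes of myeloid cells, with 6 of 12 leukocyte markers above the table median and a summed level of 12.35, the top of a range of 9.62 to 12.35 in Other, while Ptprc (3.03), Itgam (3.36) and Adgre1 (3.65) were below the table median, and the part of these genes was not tested.

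PGF2-8, a Type 1 line, had the highest Il33 and Saa3 and the lowest Ptgs2 of all 23 lines, with a 3' minus 5' actin difference of 1.58. It was the highest line for 18.1% and the lowest for 12.3% of all genes.

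SCF3-9, a Type 3 line, had the lowest Il6, at 3.83, below the table median, where the other Type 3 lines averaged 8.38 ± 0.84 (SD, n = 7). This line was the lowest for 12 of 14 interferon gamma response genes tested, where it was the lowest for 10.5% of all genes and the highest for 11.0%. Of the 5 adipocyte markers 4 lay above the table median in SCF3-9, and Adipoq (6.48) did so in this line alone. Their part was not tested. Cd74, the class II invariant chain, measured 6.43 in SCF3-9 and at least 9.24 in every other line. Gbp2, a guanylate-binding protein, measured 10.55 and at least 13.16 elsewhere, and Irf1, a transcription factor of this response, 10.05 and at least 11.49. The receptor genes Ifngr1 (8.91, the highest of all lines) and Ifngr2 (8.20) were the other 2 of the 14. Saa3 (5.75), Tnfaip3 (7.00), Lif (5.68), Ptgs2 (9.61) and Irak2 (6.80) in SCF3-9 lay within the range of the other Type 3 lines.

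**Figure D4:**
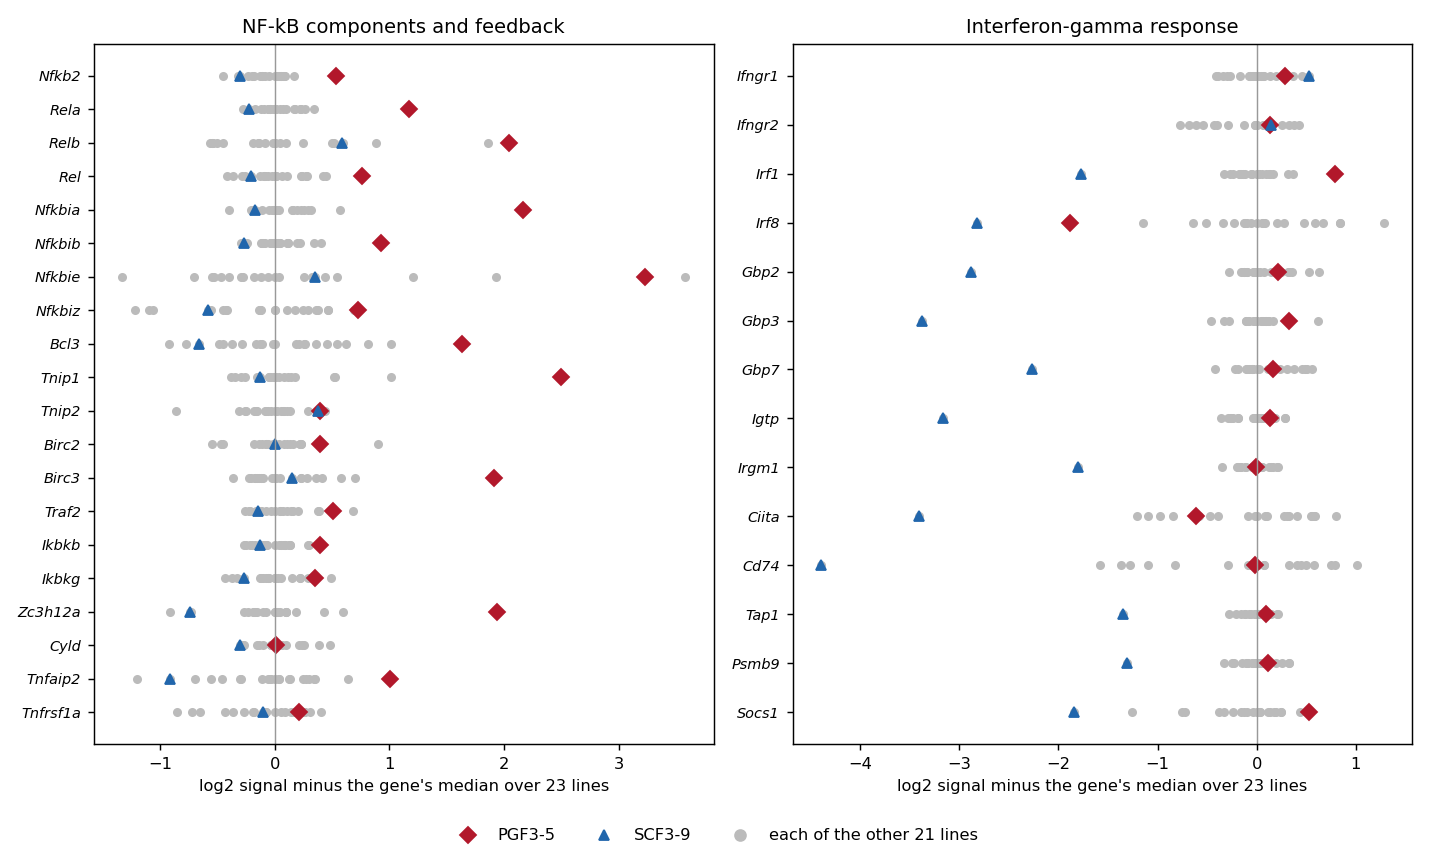
Level of each tested gene of 2 lists in every line, as log2 signal minus the gene's median over 23 lines; diamonds are PGF3-5, triangles SCF3-9 and grey points the other 21 lines. PGF3-5 is the highest line for 13 of 20 NF-kB genes, and SCF3-9 the lowest for 12 of 14 interferon gamma response genes.

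The other genes of these pathways were counted in the same fits. Of the 20 NF-kB genes, 5 rose and 3 fell in Type 1 against Types 2 and 3. Over all genes 18.2% rose and 14.6% fell. The median difference of the list was 0.20, beside 0.01 over all genes. Nfkbie rose by 2.43 ± 0.56 (adjusted p = 0.002) and Relb, a subunit of the alternative pathway, by 1.32 ± 0.35 (adjusted p = 0.00556). Nfkbiz, a nuclear IkB protein that is needed for Il6 induction in macrophages, fell in Type 1 (-0.82 ± 0.25, adjusted p = 0.0154). It was also the 1 gene of the list that rose in Other against the 3 types (0.73 ± 0.18, adjusted p = 0.0181), where 2.5% of all genes rose.

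Of 15 tested genes of interleukin 1 and Toll-like receptor signalling, 5 rose and 2 fell in Type 1, where 18.2% of all genes rose and 14.6% fell. Irak3, an inhibitory member of the kinase family of Irak2, fell by 2.81 ± 0.58 (adjusted p = 0.000752). Type 1 lines averaged 4.42 ± 0.57 for it (SD, n = 3), while Type 2 lines averaged 6.85 ± 0.48 (n = 5) and Type 3 lines 7.60 ± 0.71 (n = 8). Tlr2 rose by 1.77 ± 0.54 (adjusted p = 0.0154) and the cytokine Il18 by 1.54 ± 0.24 (adjusted p = 3.17e-05). In Other, 0 of the 15 passed, where 5.73% of all genes passed.

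Of 15 tested genes of gp130 signalling, 2 rose and 5 fell in Type 1, with a median difference of -0.62, beside 18.2% and 14.6% of all genes. Osmr, the receptor of oncostatin M, fell by 2.04 ± 0.25 (adjusted p = 1.92e-06) and the kinase Jak1 by 1.47 ± 0.17 (adjusted p = 8.33e-07), while the cytokine Ctf1 rose by 1.92 ± 0.20 (adjusted p = 2.27e-07). In Other, 4 rose and 0 fell, with Socs3, the feedback inhibitor of this pathway, at 1.01 ± 0.26 (adjusted p = 0.0241), Osmr at 0.78 (adjusted p = 0.0113) and Jak1 at 0.70 (adjusted p = 0.000937), where 2.5% of all genes rose.

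Among 8 tested acute phase genes, 0 rose and 2 fell in Type 1, where 18.2% of all genes rose and 14.6% fell. Ptx3, a secreted pentraxin, averaged 9.25 ± 1.01 for Type 1 lines, 12.88 ± 0.30 for Type 2 lines and 13.04 ± 0.39 for Type 3 lines (-3.71 ± 0.29, adjusted p = 1.61e-09). Cebpd, a transcription factor of the acute phase response, fell by 1.05 ± 0.33 (adjusted p = 0.0166). In Other, complement factor Cfb (2.20 ± 0.42, adjusted p = 0.00204), Ptx3 (1.44 ± 0.21, adjusted p = 0.000108) and Cebpd (0.88 ± 0.24, adjusted p = 0.0289) rose. These were 3 of the 8, where 2.5% of all genes rose.

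Of 11 tested prostaglandin genes, 1 rose and 5 fell in Type 1, beside the same 18.2% and 14.6% of all genes. Ptges, the inducible synthase that acts after cyclooxygenase 2, averaged 4.72 ± 0.41 for Type 1 lines, 8.19 ± 0.24 for Type 2 lines and 8.64 ± 0.39 for Type 3 lines (-3.69 ± 0.33, adjusted p = 1.42e-08). The prostacyclin receptor Ptgir (-3.42 ± 0.42, adjusted p = 1.71e-06) and the prostaglandin F receptor Ptgfr (-3.29 ± 0.39, adjusted p = 9.6e-07) fell as well. In Other, Ptgfr (1.33 ± 0.28, adjusted p = 0.00481) and Ptges (1.19 ± 0.24, adjusted p = 0.00323) rose, 2 of the 11, where 2.5% of all genes rose. Of 14 interferon gamma response genes, 0 rose and 1 fell in Type 1, beside the same 18.2% and 14.6% of all genes. The gene that fell was Socs1, at -0.76 ± 0.29 (adjusted p = 0.0472). The median difference of the 14 genes was 0.42, beside 0.01 over all genes. In Type 2 minus Type 3, between the depots and for both scores, 0 genes of the 6 lists passed after adjustment. The mean of the 3 types in the contrasts of Other includes Type 1, and Ptx3, Cebpd, Ptges, Ptgfr, Osmr, Jak1 and Nfkbiz, which rose in Other, fell in Type 1. Without the Type 1 lines the 1 gene that passed in Other fell, so none of these rises passed.

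Whether the 8 genes varied together was tested over the 23 lines for all 28 pairs. With p from 100000 permutations and Benjamini-Hochberg adjustment over the pairs, 4 passed by Pearson's r. Saa3 and Tnfaip3 had r = 0.797 (adjusted p = 0.0042) and rho = 0.405 (adjusted p = 0.12). Lif and Tnfaip3 had r = 0.677 (adjusted p = 0.0101; rho = 0.406), Il33 and Saa3 r = 0.642 (adjusted p = 0.0463; rho = 0.232), and Il33 and Irak2 r = 0.570 (adjusted p = 0.0362; rho = 0.551). By Spearman's rho, of these only Il33 and Irak2 passed, so the set of pairs depended on the measure. Il6 and Lcn2 (0.625), Il33 and Lcn2 (-0.619), Lcn2 and Irak2 (-0.576) and Lif and Irak2 (0.550) passed by rho alone (adjusted p from 0.0315 to 0.0397). Lcn2 lay above the table median in 2 lines and Il33 in 4, so rho in their pairs mostly ranks levels below it. Without the Type 1 lines Lif and Tnfaip3, Lif and Ptgs2, and Ptgs2 and Irak2 passed by r (each adjusted p = 0.0496). The groups are separate clusters, so the pairs were also taken as deviations from the group means, and then 0 of 28 passed. Saa3 and Tnfaip3 had r = 0.709 on that scale (adjusted p = 0.0531), and Il33 and Saa3 -0.053. Without PGF2-8 and PGF3-5, the lines farthest from the median of Saa3, the r of Saa3 and Tnfaip3 was 0.574. That of Lif and Tnfaip3 was 0.363 without PGF3-5 and PGF3-6, the lines farthest from the median of Lif. It was 0.577 without PGF3-5 and PGF2-8, the lines farthest from the median of Tnfaip3. Il6 and Saa3 gave r = -0.021 over all lines (adjusted p = 0.954) and -0.419 without PGF3-5.

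**Figure D5:**
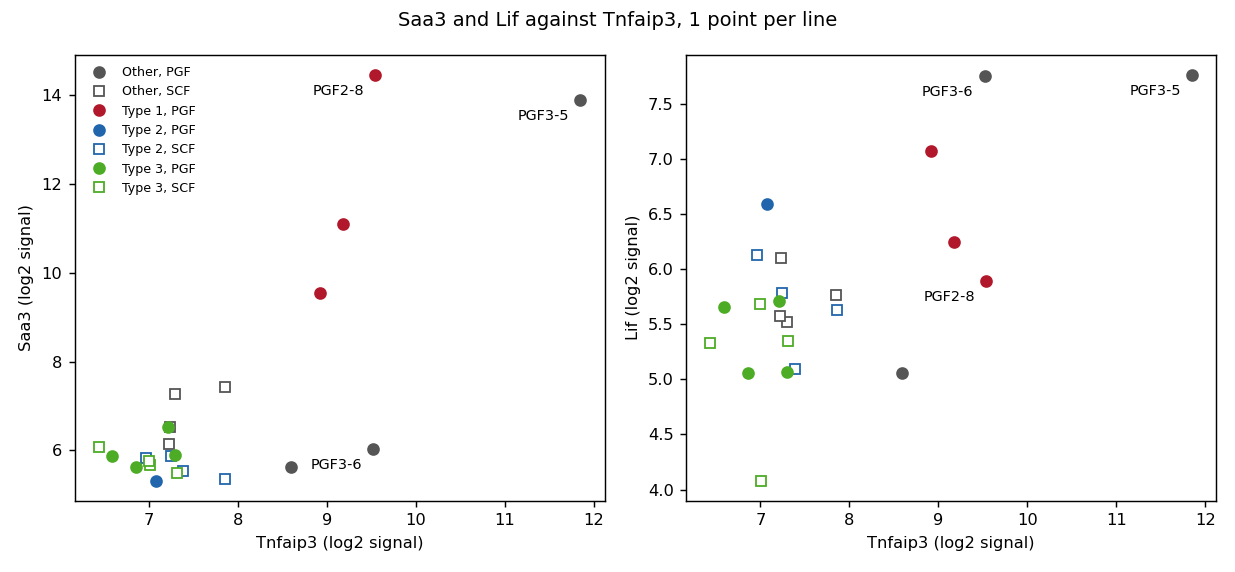
Saa3 and Lif (y axes) against Tnfaip3 (x axes), all as log2 signal, with 1 point per line coloured by group; filled circles are PGF and open squares SCF lines. The correlation of Saa3 with Tnfaip3 (r = 0.797 over 23 lines) is 0.574 without PGF2-8 and PGF3-5, and PGF3-6 has high Tnfaip3 (9.52) with low Saa3 (6.04). That of Lif with Tnfaip3 (r = 0.677) is 0.363 without PGF3-5 and PGF3-6 and 0.577 without PGF3-5 and PGF2-8.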

How the data were processed

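Gene expression was measured on 1 Affymetrix mouse array for each of 23 clonal lines. The deposited values are log2 signals of 45101 probe sets; per the submitters' processing notes MAS5 was named, while the sources used here do not say how the log2 values were summarised and normalised. The medians of the arrays ranged between 5.09 and 5.16, and no further scaling was applied. The 64 control probe sets and the 932 with several symbols were left out, and 34741 of 34945 single-symbol probe sets matched a RefSeq gene. Detection calls were not used here. Precision is limited by how many arrays each group has.

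Genes above the table median of 5.13 in at least 3 lines (12307 of 18193) were tested with limma 3.58.1 in R 4.3.3 (lmFit, eBayes; Benjamini-Hochberg adjusted p below 0.05), over all 23 lines with group as factor, and with group as a covariate for depot and scores. Correlations used 100000 permutations. The fits were tested on simulated data with known changes. Members and gene lists were chosen with earlier results of these data known. Genes of the lists were named by the largest difference among those that passed, at most 3 in each list and contrast, and the 3 tested genes most alike to each member were named by Pearson's r over the lines, leaving out members and clone or predicted names; the other genes named for PGF3-5, PGF3-6, PGF2-8 and SCF3-9 were chosen after their values were seen. The alternatives tried were no filter, the mean of all probe sets, arrays centred on their median, an offset of 16, array weights, the clone-name number or depot in the model, no group in the model, no Type 1 lines and each line left out.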

Additional observations from a re-analysis of the deposited data

Results flagged for a closer look

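In 6 of 24 sets checked, each of them 1 gene in 1 group, 1 line lay far from the others of its group. The 6 values came from 5 lines. Chance alone flags about 1 set in 20 where sets are independent. These sets share lines, so the count was not compared with that rate. Il6 was 3.83 in SCF3-9, where the nearest of the other Type 3 lines had 7.34. Lif was 4.08 in SCF1-12, a Type 3 line, with the nearest at 5.06. Il33 was 4.86 in PGF2-5, a Type 3 line, with the nearest at 4.14, and both levels lie below the table median of 5.13. Il33 was 5.79 in PGF3-6, an Other line, with the nearest at 4.29. In PGF3-5, also an Other line, Saa3 was 13.90 with the nearest at 7.42, and Lcn2 was 6.13 with the nearest at 4.25. Type 1, with 3 lines, was not checked in this way.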

How the results depend on the processing

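Of 1484 recomputed values of the members' 49 results, 1387 kept their direction and their side of the threshold, 70 changed sign, 22 no longer passed and 5 newly passed. In Type 1 minus Types 2 and 3, between 3 and 5 members passed when 1 line was left out. In Type 2 minus Type 3, 0 members passed without the filter, with the mean of all probe sets and with the clone-name number, and 0 to 1 when 1 line was left out. In Other minus the 3 types, 0 passed without the Type 1 lines, and 1 to 2 when 1 line was left out; the second, without PGF3-6, was Irak2 (-0.60, adjusted p = 0.0195). Of the 28 correlations, 0 passed as deviations from group means and 2 to 9 when 1 line was left out (9 without PGF3-5, 2 without PGF3-4 or PGF3-11). Over all genes, 4042 passed in Type 1 minus Types 2 and 3 and 7073 with array weights, whose estimation did not converge. In Type 2 minus Type 3, 47 passed, against 9 without the filter, 7 with mean probe sets, 1037 with array weights, 5 with the clone-name number, 133 with depot and 0 to 195 when 1 line was left out. In Other minus the 3 types, 705 passed, against 1 without the Type 1 lines and 455 to 1267 when 1 line was left out. No paired analysis was possible because the labels give no replicate numbers; the number in the clone names, whose meaning the labels do not give, is shared by several lines of a group and was fitted as a block, with the counts above.

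The values that changed sign belong to results that did not pass, except Il33 in Other, and the cause was not tested. Array weights gave -0.42 for Il6 in Type 2 minus Type 3. Without Type 1 lines, Other minus the types was 0.0155 for Il33 and 1.84 for Saa3. Without group in the model, the depot difference of Ptgs2 was -0.29. Differentiation slopes became -0.149 for Lif, -0.893 for Saa3 and -0.312 for Tnfaip3 without group, 0.0306 for Il33 and -0.000614 for Saa3 with array weights, and -0.102 for Saa3 and -0.0468 for Tnfaip3 with the clone-name number. Acidification slopes became -0.189 for Il6, -0.0381 for Lif and 0.0183 for Irak2 without group, -0.0186 for Lif with mean probe sets, -0.0456 for Lif with array weights, and -0.00836 for Lif and -0.0360 for Il33 without Type 1 lines. With 1 line left out, Il6 ranged from -0.469 to 0.415 in Type 2 minus Type 3 and Saa3 from -1.21 to 0.305 in Other minus the types. The depot difference ranged from -0.273 to 1.06 for Saa3, -0.104 to 0.467 for Ptgs2 and -0.0519 to 0.213 for Irak2. The differentiation slope ranged from -0.0685 to 0.209 for Lif, -0.0887 to 0.0869 for Il33, -0.139 to 0.322 for Saa3 and -0.0389 to 0.127 for Tnfaip3. The acidification slope ranged from -0.152 to 0.190 for Il6, -0.159 to 0.0816 for Lif, -0.0360 to 0.0779 for Il33 and -0.0679 to 0.413 for Tnfaip3. The difference between the depot differences of Type 3 and Other ranged from -1.38 to 0.663 for Il6, -0.785 to 0.243 for Il33 and -2.89 to 1.24 for Saa3.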
